A study of Mus musculus with 8 samples.

Results

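The mitochondrially encoded genes were described in striatum RNA of 16p11.2+/- mice and their WT controls. Their members were the genes of the deposited table whose symbol starts with mt-, which gave 37 of 55032 genes: 13 mRNAs, 2 rRNAs and 22 tRNAs. Females of the C57BL/6 strain were used at postnatal day 60, with 4 mice of each genotype and 1 library of total RNA per mouse. The 16p11.2+/- mice carry a heterozygous germline deletion of the segment of mouse chromosome 7 that corresponds to human 16p11.2. They are named DF-1018, DF-1037, DF-1059 and DF-1062 after the labels, and the WT mice WT-1015, WT-1041, WT-1061 and WT-1063. No other allele or treatment is given.

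The mouse mitochondrial genome is a small circular DNA carried in many copies per cell. It is transcribed from both strands into long precursors, from which the tRNAs that lie between the other genes are cut out, and this releases the mRNAs and rRNAs. The mRNAs encode core subunits of complexes I, III, IV and V of oxidative phosphorylation, and all other subunits, together with the proteins that copy, transcribe and translate the mitochondrial genome, come from nuclear genes. Stretches of mitochondrial DNA have also been inserted into the nuclear chromosomes, where they are annotated as pseudogenes.

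The counted reads ranged from 15125051 to 16387993 in the WT libraries and from 15240680 to 16523429 in the 16p11.2+/- libraries. Mapk3, which lies in the deleted segment, had between 35.7 and 46.4 FPKM (counts scaled to the length of the gene and to the total of the library) in WT mice and between 20.7 and 22.3 FPKM in 16p11.2+/- mice. The libraries differed in markers of the dissected region. The summed FPKM of 9 markers of striatal medium spiny neurons was 353 in DF-1037 and 282 in DF-1062, against 919 to 1545 in the other 6 mice, and none of the 9 was at 0 in all mice. The summed FPKM of 7 thalamic markers was between 116 and 211 in WT-1063, DF-1018, DF-1037 and DF-1062 and between 15.9 and 26.8 in the other 4. That of 7 markers of cortical glutamatergic neurons was 158 in DF-1037, 116 in WT-1041 and 96.6 in WT-1015, and between 17.8 and 49.4 in the other mice. The oligodendrocyte markers summed to between 1419 and 1711 FPKM in WT mice and to between 939.5 and 1283 in 16p11.2+/- mice. The 6 choroid plexus markers summed to 4414 FPKM in WT-1063, 476 in WT-1015 and between 7.73 and 126 in the other mice. In bulk tissue, fewer cells of a type and less RNA per cell cannot be told apart.

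Part of the mitochondrial genome has a nearly identical copy on chromosome 1, and its sequences are shown because a read from them has more than one place to map. In GENCODE M21 (GRCm38), 7 pseudogenes on the minus strand of chromosome 1 between positions 24611535 and 24616197 follow the order of mt-Co1, mt-Co2, mt-Atp6, mt-Co3, mt-Nd3, mt-Nd4l and mt-Nd4. They span 4663 bases, against 4662 bases of mitochondrial DNA between positions 6381 and 11042, and 5 of the 6 gaps between neighbours have the same length in both. The start of the copied block lies within mt-Co1. In the next lines capitals mark the bases at which mt-Co1 (chrM:6381-6440, plus strand) and its copy Gm29216 (chr1:24616138-24616197, minus strand) differ, all of them within the first bases of the copy.
mt-Co1: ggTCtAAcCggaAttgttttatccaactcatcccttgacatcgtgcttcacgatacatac
Gm29216: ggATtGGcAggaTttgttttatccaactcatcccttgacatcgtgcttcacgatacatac
The substitutions, counted from 1 at the 5′ end of mt-Co1 with the mitochondrial base first, were T1056A, C1057T, A1059G, A1060G, C1062A and A1066T. Beyond them no difference was found over the 492 bases of Gm29216. mt-Nd3 (chrM:9459-9518, plus strand) and Gm28438 (chr1:24613060-24613119, minus strand) differed at 1 of 345 bases, T3C, shown in capitals.
mt-Nd3: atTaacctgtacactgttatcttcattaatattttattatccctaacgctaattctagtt
Gm28438: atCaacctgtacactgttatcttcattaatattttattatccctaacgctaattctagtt
The copies of mt-Co2 (Gm28661, 681 bases), mt-Atp6 (Gm10925, 678 bases), mt-Co3 (Gm28437, 783 bases) and mt-Nd4l (Gm10222, 294 bases) had no difference from the mitochondrial gene, nor had Gm28439 over the first 876 bases of mt-Nd4. The first bases of mt-Co2 (chrM:7013-7072, plus strand) and of Gm28661 (chr1:24615506-24615565, minus strand) show what such a pair looks like, with no capital in either.
mt-Co2: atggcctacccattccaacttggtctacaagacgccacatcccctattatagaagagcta
Gm28661: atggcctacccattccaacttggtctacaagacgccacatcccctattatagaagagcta

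The share of each mitochondrial gene that an exact copy covers was measured as the share of its bases that lie in a stretch of 100 bases found unchanged in another annotated transcript. It was 99.6% for mt-Co2, 99.6% for mt-Atp6, 99.9% for mt-Co3, 98.3% for mt-Nd3 and 99.0% for mt-Nd4l. It was 63.6% for mt-Nd4, 48.1% for mt-Co1 and 12.4% for mt-Nd2, whose copy Gm13339 lies on chromosome 2, and 0% for the other mRNAs and both rRNAs. Further copies of mt-Co1 (Gm13340) and mt-Co2 (Gm13341) also lie on chromosome 2. Part of the 48.1% of mt-Co1 comes from Gm13340. mt-Atp8 has no annotated copy of its own. Its last 43 bases are also the first of mt-Atp6, which Gm10925 holds unchanged, but they are too few to fill a stretch of 100 bases. The rest of mt-Atp8 lies between mt-Co2 and mt-Atp6, where the gap is 233 bases long in the mitochondrial genome and also on chromosome 1. The sequence of that gap on chromosome 1 was not analysed here, so its identity to this part of mt-Atp8 was not checked. By position, 6 mRNAs lie wholly between the borders of the block: mt-Co2, mt-Atp8, mt-Atp6, mt-Co3, mt-Nd3 and mt-Nd4l.

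The mRNAs outside this block were among the most abundant RNAs of the striatum, and the 6 mRNAs inside it had lower levels. Of the 10 genes with the highest mean FPKM of all genes, 9 were mitochondrial. The 7 mRNAs that lie outside the block or only partly inside it had between 2405 and 14150 FPKM in every mouse, while the 6 inside it had between 15.4 and 782 FPKM. The ranges of both sets did not overlap in any mouse, and the 6 genes held between 0.868% and 1.93% of the counts on mitochondrial mRNAs. The members of both sets follow from position alone, but they were compared after the values had been seen, so no test is given. The plot of FPKM by mouse in gene order shows the step at both borders of the block.

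**Figure D1:**
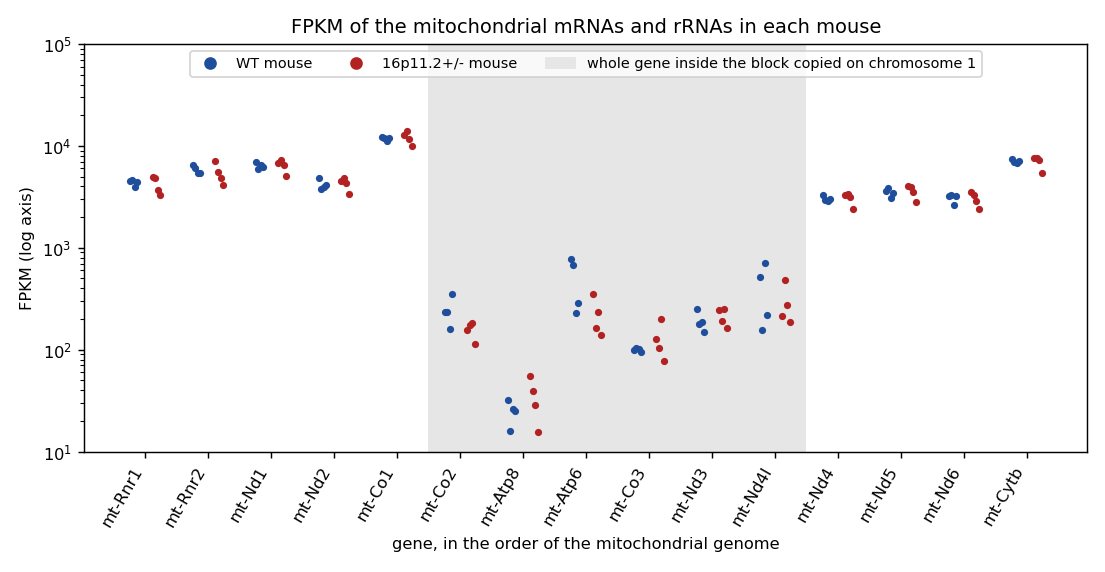
FPKM on a log axis of the 13 mitochondrial mRNAs and 2 rRNAs in the order of the mitochondrial genome, with 1 point per mouse (blue WT, red 16p11.2+/-). The grey area holds the 6 mRNAs that lie wholly between the borders of the block copied on chromosome 1. Of these, mt-Atp8 was placed there by the equal length of the gap and by the 43 bases it shares with mt-Atp6. The 6 genes in the grey area sit between 15.4 and 782 FPKM and the other 7 mRNAs between 2405 and 14150.

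Among the subunits of complex IV, mt-Co1 (ENSMUSG00000064351, chrM:5328-6872, plus strand), which encodes the catalytic subunit, had the highest mean FPKM of all genes. It had 12280, 12010, 11140 and 11990 FPKM in WT-1015, WT-1041, WT-1061 and WT-1063, and 12870, 14150, 11780 and 10070 FPKM in DF-1018, DF-1037, DF-1059 and DF-1062. The highest and the lowest mouse were both 16p11.2+/-. mt-Co2 (chrM:7013-7696, plus strand), which carries the copper site that receives electrons from cytochrome c, had 236, 232, 159 and 350 FPKM in the WT mice and 156, 173, 182 and 112 FPKM in the 16p11.2+/- mice in the same order. WT-1063 was highest and DF-1062 lowest, and WT-1061 lay within the range of the 16p11.2+/- mice. mt-Co3 (chrM:8607-9390, plus strand), the third of the core subunits, had 98.2, 103, 101 and 95.4 FPKM in the WT mice and 127, 104, 200 and 76.9 FPKM in the 16p11.2+/- mice. The WT mice lay close together, inside the range of the 16p11.2+/- mice, whose highest value came from DF-1059.

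Both mitochondrial subunits of complex V, the ATP synthase, lie in the block. mt-Atp6 (chrM:7927-8607, plus strand) encodes the subunit through which protons enter and leave the rotor, and mt-Atp8 (chrM:7766-7969, plus strand) a small membrane subunit. Their genes share 43 bases, which are in capitals in the stretch below (chrM:7897-7999, plus strand), shown because reads that cover both genes are left uncounted by the usual setting of the counting program.
mt-Atp8 and mt-Atp6: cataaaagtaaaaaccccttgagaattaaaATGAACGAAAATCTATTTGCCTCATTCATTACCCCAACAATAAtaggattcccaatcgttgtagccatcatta
mt-Atp6 had 782, 683, 230.5 and 285 FPKM in WT-1015, WT-1041, WT-1061 and WT-1063. In DF-1018, DF-1037, DF-1059 and DF-1062 it had 355, 162, 237 and 140.2 FPKM. WT-1015 and WT-1041 stood above all other mice, and the other 2 WT mice lay within the range of the 16p11.2+/- mice. mt-Atp8 had the lowest level of the mRNAs, with 32.1, 16.0, 26.3 and 24.9 FPKM in the WT mice and 55.3, 39.3, 28.3 and 15.4 FPKM in the 16p11.2+/- mice. These values rest on between 50 and 172 counts per mouse, and the mouse highest in mt-Atp8 was not the one highest in mt-Atp6.

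The 7 mitochondrial subunits of complex I, which takes electrons from NADH, were on both sides of this step. mt-Nd1 (chrM:2751-3707), which lies next to the quinone site, had between 5970 and 6982 FPKM in WT mice and between 5013 and 7345 in 16p11.2+/- mice. The subunits of the proton-pumping arm followed. mt-Nd2 (chrM:3914-4951) had between 3782 and 4826 FPKM in WT mice and between 3360 and 4802 in 16p11.2+/- mice. mt-Nd4 (chrM:10167-11544) had between 2907 and 3287 FPKM in WT mice and between 2405 and 3342 in 16p11.2+/- mice. mt-Nd5 (chrM:11742-13565) had between 3050 and 3822 FPKM in WT mice and between 2795 and 4018 in 16p11.2+/- mice. In each of these 4 genes the lowest mouse was DF-1062, and the ranges of both genotypes overlapped. mt-Nd6 (chrM:13552-14070) is the single mRNA encoded on the minus strand, and it had between 2648 and 3326 FPKM in WT mice and between 2414 and 3531 in 16p11.2+/- mice, 0.809 to 0.940 times the FPKM of mt-Nd5 in the same mouse. Their ends overlap by 14 bases on opposite strands, and since the strand setting of the counting is not stated, RNA of mt-Nd6 and antisense RNA of the other strand cannot be told apart.

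The small complex I subunits inside the block were lower. mt-Nd3 (chrM:9459-9806, plus strand) had 253, 177, 187 and 151 FPKM in the WT mice and 243, 192, 249 and 163 FPKM in the 16p11.2+/- mice. mt-Nd4l (chrM:9877-10173, plus strand) had 520, 157, 714 and 221 FPKM in the WT mice and 215, 480, 277 and 187 FPKM in the 16p11.2+/- mice. Mice of 1 genotype thus differed from each other by more than the genotypes did, and the highest mouse had 4.54 times the FPKM of the lowest. mt-Nd4, which shares 7 bases with mt-Nd4l and comes from the same RNA, differed by 1.39 times between its highest and lowest mouse.

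mt-Cytb (chrM:14145-15288), the mitochondrial subunit of complex III, had 7388, 6985, 6826 and 7145 FPKM in the WT mice and 7609, 7592, 7281 and 5451 FPKM in the 16p11.2+/- mice. DF-1062 stood below the other 7 mice. Of the rRNAs, the small subunit rRNA mt-Rnr1 (chrM:70-1024) had between 3987 and 4623 FPKM in WT mice and between 3317 and 4927 in 16p11.2+/- mice. The large subunit rRNA mt-Rnr2 (chrM:1094-2675) had between 5381 and 6523 FPKM in WT mice and between 4174 and 7055 in 16p11.2+/- mice. Per read, mt-Rnr1 had between 0.422 and 0.528 counts for each count of mt-Rnr2. How rRNA and RNA without a poly(A) tail were treated during library preparation is not stated, so the level of the rRNAs against that of the mRNAs depends on a step that is not known here.

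The sequences in the block were also counted on the pseudogenes of chromosome 1. The counts on Gm28661, the copy of mt-Co2, were between 536 and 898 per mouse, and those on Gm10925, the copy of mt-Atp6, between 1635 and 3877. The mitochondrial gene held between 68.3% and 81.2% of the summed counts of mt-Co2 and Gm28661, between 62.0% and 75.7% for mt-Co3, and between 88.0% and 93.9% for mt-Nd3. For mt-Atp6 it held 78.4% in WT-1015, 78.3% in WT-1041, 54.9% in WT-1061 and 44.8% in WT-1063. In DF-1018, DF-1037, DF-1059 and DF-1062 this share was 54.7%, 44.3%, 49.7% and 49.1%. The 2 mice with the most mt-Atp6, WT-1015 and WT-1041, had the highest shares, but the share contains the mt-Atp6 count itself. Their counts on Gm10925, 2220 and 1977, lay within the range of the other mice. For mt-Nd4l the share ranged from 58.5% in DF-1062 to 92.1% in WT-1061. Where both members of a pair are identical in sequence, a read alone does not tell them apart, and the setting for reads with several places to map is not stated. The part of this division in the low level and in the spread of the 6 genes was not tested.

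**Figure D2:**
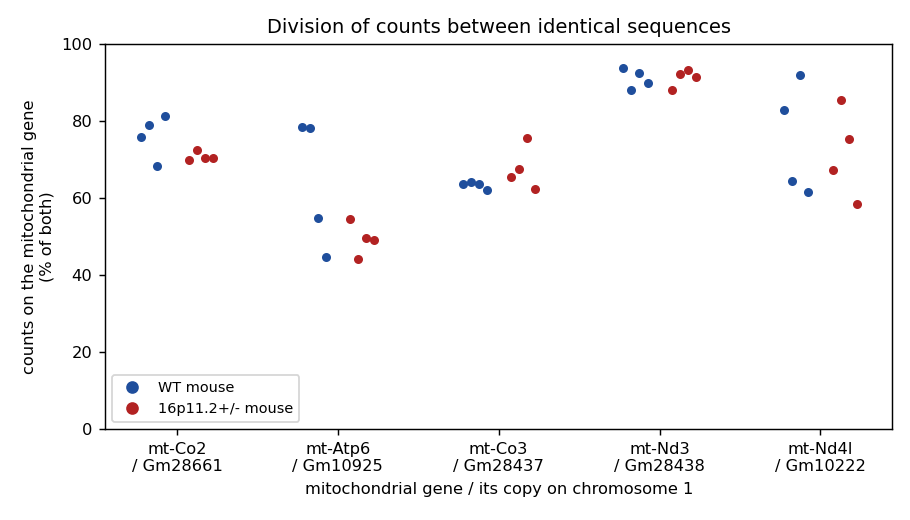
Counts on 5 mitochondrial mRNAs as a percentage of the summed counts of the gene and its copy on chromosome 1, with 1 point per mouse (blue WT, red 16p11.2+/-). mt-Nd3 lies between 88.0% and 93.9% in all 8 mice, while mt-Atp6 ranges from 44.3% to 78.4% and mt-Nd4l from 58.5% to 92.1%.

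For the genes copied in part, the FPKM depends on the length used. Divided by the bases outside exact copies alone, the mean level over 8 mice would be 23190 FPKM for mt-Co1, 8351 for mt-Nd4 and 4821 for mt-Nd2. Read counts along a gene were not analysed here, so this is the level that would hold if no read of the copied stretch had been counted on the gene.

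All mitochondrial genes together held 6.77%, 6.40%, 5.95% and 6.25% of the counted reads in WT-1015, WT-1041, WT-1061 and WT-1063. They held 7.01%, 7.02%, 6.15% and 5.0% in DF-1018, DF-1037, DF-1059 and DF-1062. The means were 6.34% ± 0.341 (SD, n = 4) in WT mice and 6.30% ± 0.954 (SD, n = 4) in 16p11.2+/- mice, and the lowest as well as the 2 highest mice were 16p11.2+/-. DF-1037 and DF-1062, the mice low in striatal markers, were at opposite ends of this range. These 2 mice also differed in cortical markers, with a summed FPKM of 158 in DF-1037 and 19.0 in DF-1062. Without both mice, the 16p11.2+/- mean was 6.58%. By complex, the mRNAs of complex I took 2.28% ± 0.131 of the reads in WT mice and 2.30% ± 0.349 in 16p11.2+/- mice, those of complex IV 1.86% ± 0.0793 and 1.91% ± 0.269, and mt-Cytb of complex III 0.811% ± 0.0275 and 0.799% ± 0.118 (SD, n = 4 each). The rRNAs took 1.34% ± 0.107 and 1.25% ± 0.265. The mRNAs of complex V took 0.0342% ± 0.0189 and 0.0159% ± 0.00688, and their values per mouse overlapped, from 0.0162% to 0.0539% in WT and from 0.00987% to 0.0253% in 16p11.2+/- mice. Within the mitochondrial reads, 77.1% to 81.5% were on mRNAs, 18.2% to 22.6% on rRNAs and 0.241% to 0.306% on tRNAs, while the mRNAs of complex V ranged from 0.169% to 0.796%. The plot of shares shows the groups to overlap in every large class.

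**Figure D3:**
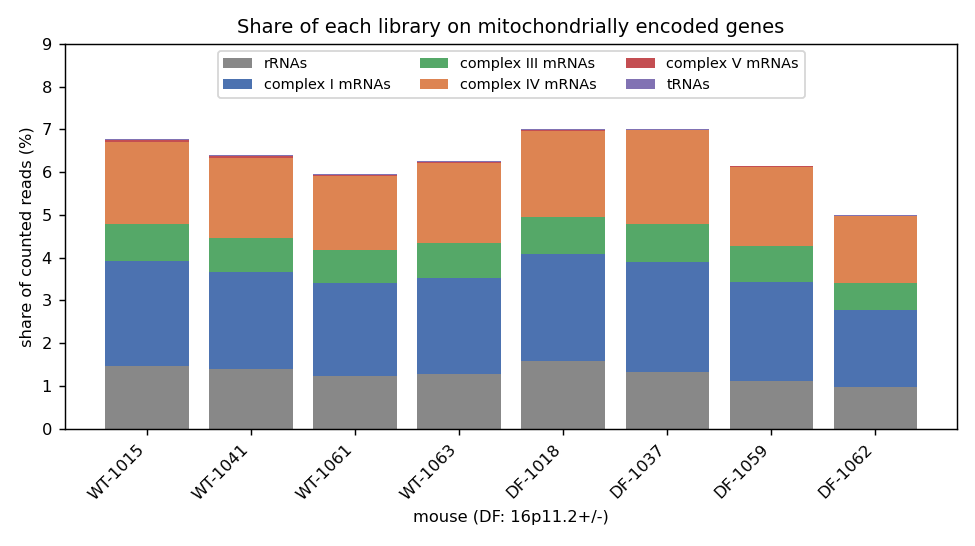
Share of the counted reads of each mouse (%) on the mitochondrial rRNAs, the mRNAs of each respiratory complex and the tRNAs, stacked. The bars end between 5.0% (DF-1062) and 7.02% (DF-1037), and the WT mice lie between 5.95% and 6.77%.

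DF-1062 had the lowest FPKM of the 8 mice in 13 of the 15 mRNAs and rRNAs, and in all 7 of the abundant mRNAs. DF-1018 was highest in 6 of the 15 and DF-1037 in 3. The mean log2 CPM (counts scaled to the library total and its TMM factor) of the 7 abundant mRNAs was 12.04 in DF-1062 and between 12.38 and 12.62 in the other mice. Over 71 nuclear genes of complexes I, III, IV and V the mean log2 CPM was 5.74 in DF-1062 and between 5.61 and 5.96 in the others. By complex, DF-1062 was lowest only over the 11 genes of complex IV, at 6.26 against 6.33 to 6.72. It had 5.28 against 5.10 to 5.43 for complex I, 5.95 against 5.74 to 6.09 for complex III and 6.33 against 6.24 to 6.59 for complex V. DF-1062 also had the lowest summed FPKM of the striatal and of the oligodendrocyte markers and the highest TMM factor, 1.06 against 0.973 to 1.003 in the others. The part of these in its low mitochondrial level was not tested.

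The spread between mice of the same genotype also separated both sets of mRNAs. The SD of log2 CPM within genotype was between 0.183 and 0.231 for the 7 abundant mRNAs and between 0.331 and 0.855 for the 6 mRNAs inside the block, with a median of 0.25 over all genes tested. Of the genes tested, 12031 were at or above the level of mt-Atp8, the lowest of the mRNAs, and their median SD was 0.177. All 13 mRNAs exceeded this median, as the plot of spread against level shows. At or above the level of the lowest of the 7 abundant mRNAs were 27 genes, with a median SD of 0.213. The 18 of these that are not mitochondrial ranged from 0.068 to 0.664, which includes the values of the 7.

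**Figure D4:**
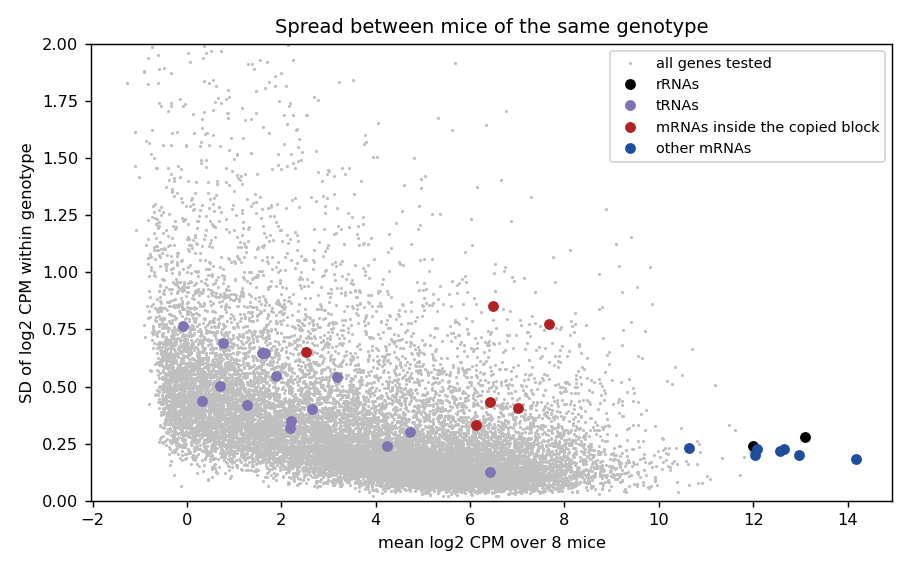
SD of log2 CPM within genotype against the mean log2 CPM over 8 mice for all genes tested (grey) and the tested mitochondrial genes (colours); 54 genes with an SD over 2 lie outside the plot. The 6 mRNAs inside the copied block lie at 0.331 to 0.855 and the other 7 mRNAs at 0.183 to 0.231.

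The study compared expression in the striatum between 16p11.2+/- mice and WT controls, with myelin-related changes as its aim. With edgeR's quasi-likelihood test on counts, none of the 30 mitochondrial genes that passed the expression filter (13 mRNAs, 2 rRNAs and 15 tRNAs) was called at an adjusted p under 0.05, against 20 of 18294 genes in all (0.109%). Of these 20 genes, 18 lie on chromosome 7. At so low a share, no call among 30 genes does not set them apart from other genes. An unadjusted p under 0.05 was given to 2 mitochondrial genes, 6.67% of those tested, against 4.32% of all genes. None of the 30 had FPKM values that did not overlap between the groups, against 2.83% of all genes. The median log2 fold change (16p11.2+/- minus WT) was -0.01 over the mRNAs and -0.01 over all genes tested, with 6 mRNAs above 0 and 7 below.

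For the 7 abundant mRNAs the log2 fold changes lay between -0.05 and 0.03, with standard errors between 0.15 and 0.17, and the smallest unadjusted edgeR p was 0.781. The rRNAs had log2 fold changes of -0.08 (SE 0.17) for mt-Rnr1 and -0.13 (SE 0.20) for mt-Rnr2. Without DF-1062 the log2 fold changes of the 7 mRNAs lay between 0.08 and 0.16, all above 0, with a smallest edgeR p of 0.226. Differences of the size of the standard errors were therefore not detectable with these 4 mice per group. Each of the 7 signs turned on leaving out at least 1 mouse, either DF-1062 or another.

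The genes inside the block had larger differences with larger errors. mt-Co2 had a log2 fold change of -0.66 (SE 0.24), with an edgeR p of 0.0241 and an adjusted p of 0.859. The exact two-sided permutation test on its FPKM gave p = 0.0857 (70 assignments, smallest possible p 0.0286). mt-Atp6 had a log2 fold change of -1.16 (SE 0.46), with an edgeR p of 0.0330 and an adjusted p of 0.859, and the exact permutation p of its FPKM was 0.171. mt-Nd4l had a log2 fold change of -0.50 (SE 0.50), mt-Nd3 of 0.12 (SE 0.20), mt-Co3 of 0.34 (SE 0.26) and mt-Atp8 of 0.47 (SE 0.39). Thus 3 of the 6 were above 0 and 3 below, and genes of the same complex, mt-Atp8 and mt-Atp6 or mt-Co2 and mt-Co3, had opposite signs. Single mice moved these values by over 1.5 times: mt-Nd4l had -0.06 without WT-1061 and -0.86 without DF-1037, mt-Co3 had 0.04 without DF-1059 and 0.54 without DF-1062, and mt-Atp8 had 0.14 without DF-1018 and 0.74 without DF-1062. For mt-Nd3 the log2 fold change went from 0.02 without WT-1063 to 0.30 without WT-1015, and for mt-Co2 it was -0.44 without WT-1063. With the counts of the chromosome 1 copy added to each gene before the fit, an alternative added after the data were seen, mt-Co2 had a log2 fold change of -0.54 (SE 0.21) with an edgeR p of 0.0318 and an adjusted p of 0.859, and mt-Atp6 had -0.73 and no longer an unadjusted p under 0.05. The fit without DF-1037 and DF-1062 was also added after the data were seen, and it leaves out 2 of the 4 16p11.2+/- mice. In it mt-Co2 and mt-Atp6 were both above an unadjusted p of 0.05, with log2 fold changes of -0.52 and -0.73. mt-Co3 had 0.72 (SE 0.15) with an edgeR p of 0.00230, and the tRNA mt-Tl2 had 0.73 (SE 0.23) with an edgeR p of 0.0164. Both had an adjusted p of 0.995. These were the 2 of 30 mitochondrial genes with an unadjusted p under 0.05 there, against 4.03% of all genes. No mitochondrial gene was called in either fit.

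**Figure D5:**
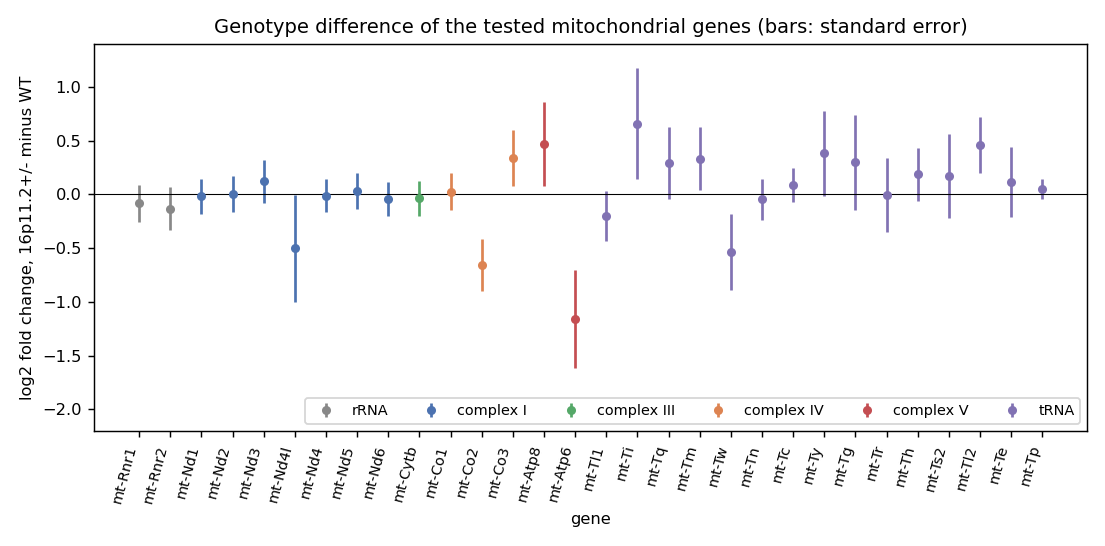
Log2 fold change (16p11.2+/- minus WT) with its standard error of the 30 mitochondrial genes tested, grouped and coloured by complex, rRNA or tRNA. The abundant mRNAs lie between -0.05 and 0.03, while mt-Atp6 at -1.16 and mt-Co2 at -0.66 lie farthest below 0 among the mRNAs.

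The tRNA genes gave few counts, 21972 over all 22 genes and 8 mice. Mature tRNAs are short, folded and chemically modified, and RNAseq libraries of long RNA recover few of them. mt-Tp, the proline tRNA (chrM:15356-15422, minus strand), alone held 49.2% of them, and its sequence is shown as that of the most counted tRNA, beside that of the phenylalanine tRNA mt-Tf (chrM:1-68, plus strand), which had no count in any mouse.
mt-Tp: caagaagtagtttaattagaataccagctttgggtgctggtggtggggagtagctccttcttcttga
mt-Tf: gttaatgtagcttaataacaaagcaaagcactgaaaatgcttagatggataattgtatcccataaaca
mt-Tp had 1282, 1305, 1125 and 1276 FPKM in the WT mice and 1356, 1439, 1231 and 1215 FPKM in the 16p11.2+/- mice. Its SD of log2 CPM within genotype, 0.126, was smaller than that of any mitochondrial mRNA, and its log2 fold change was 0.05 (SE 0.09). The asparagine tRNA mt-Tn had between 325 and 495.5 FPKM in WT mice and between 293 and 480 in 16p11.2+/- mice. The cysteine tRNA mt-Tc had between 208 and 340.2 FPKM in WT mice and between 268 and 326 in 16p11.2+/- mice. The glutamate tRNA mt-Te ranged from 61.9 to 182 FPKM in WT mice and from 122 to 200.2 in 16p11.2+/- mice. These 4 tRNAs are all encoded on the minus strand, and the 8 tRNA genes of that strand held 83.3% of the tRNA counts against 14 genes on the plus strand. The next, the leucine tRNA mt-Tl2 (chrM:11671-11741, plus strand), had between 54.1 and 93.1 FPKM in WT mice and between 66.5 and 138 in 16p11.2+/- mice, with a log2 fold change of 0.46 (SE 0.26).

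Of the 15 tRNAs tested, 11 had a log2 fold change above 0, with a range from -0.54 for mt-Tw to 0.66 for mt-Ti and a median of 0.17. The smallest unadjusted edgeR p among them was 0.112. The other 7 did not pass the filter, and 4 of the 22 had fewer than 10 counts over all mice. Whether such counts came from the tRNA or from the antisense strand of a neighbouring mRNA cannot be told apart without the strand setting.

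Nuclear genes that act on the mitochondrial genome were examined in the same fit. The 68 genes tested act in transcription and copying of the mitochondrial genome, processing and stability of its RNA, its translation or mitochondrial biogenesis. None was called, against 0.109% of all genes, and at so low a share this does not set the 68 genes apart. A log2 fold change below 0 was found for 19 of them. The unadjusted edgeR p was under 0.05 for 1 of them (1.47%, against 4.32% of all genes), Ptcd2, an RNA-binding protein that takes part in processing the mt-Cytb precursor. Ptcd2 had between 11.03 and 12.02 FPKM in WT mice and between 12.5 and 14.4 in 16p11.2+/- mice, with a log2 fold change of 0.18 (SE 0.08) and an adjusted p of 0.859. The count of 1 was 0 with limma-voom and with either other filter, and with 1 mouse left out it ranged from 0 to 4, with 4 without WT-1063, 3 without DF-1059 and 2 without DF-1018. It was 0 without WT-1015, WT-1061, DF-1037 or DF-1062. The FPKM ranges of the genotypes did not overlap for Ptcd2, Pde12, Supv3l1 and Gtpbp3, all higher in 16p11.2+/- mice, against 2.83% of all genes in either direction. The unadjusted edgeR p was 0.103 for Pde12, 0.134 for Supv3l1 and 0.0858 for Gtpbp3. The median log2 fold change of the 68 genes was 0.07, against -0.01 over all genes tested. The RNA polymerase Polrmt had 5.02 ± 0.186 FPKM in WT mice and 5.16 ± 0.487 in 16p11.2+/- mice. The packaging and transcription factor Tfam had 7.34 ± 0.272 and 7.60 ± 0.995 FPKM (SD, n = 4 each). The polymerase Polg, which copies the mitochondrial genome, had 6.17 ± 0.192 and 6.61 ± 0.388 FPKM. Lrpprc, which binds and stabilises mitochondrial mRNAs, had 9.42 ± 1.03 and 10.4 ± 1.39 FPKM, and its partner Slirp was near the lower end of detection with 0.342 ± 0.0889 and 0.405 ± 0.113 FPKM. Mterf3, a repressor of mitochondrial transcription, had 4.85 ± 0.90 and 5.17 ± 0.428 FPKM. Ppargc1a, the coactivator of mitochondrial biogenesis, had 11.1 ± 2.71 and 11.9 ± 1.47 FPKM. The log2 fold changes of these 7 genes lay between 0.02 for Polrmt and 0.22 for Slirp, and the smallest unadjusted edgeR p among them was 0.283, for Lrpprc.

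For the nuclear subunits of the same complexes, 0 of 71 genes were called by edgeR, against 0.109% of all genes, which does not set them apart. An unadjusted edgeR p under 0.05 was given to 0 of the 71, against 4.32% of all genes. The median log2 fold change of the 71 was 0.04. Their median FPKM was 33.6, and the highest was that of the complex IV subunit Cox8a with 214 ± 7.80 FPKM in WT mice and 217 ± 42.0 in 16p11.2+/- mice. The abundant mitochondrial mRNAs, at 2405 FPKM or more in each mouse, were above every nuclear subunit of these lists, whose highest mean was 215 FPKM.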

How the data were processed

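RNAseq of striatum was analysed for 8 mice, 4 per genotype. Per the study's methods, the authors filtered the reads, aligned them with Hisat2 2.1.0, extracted a raw count per gene with Htseq-count and deposited these counts, whereas the submitters' processing notes name Bowtie 0.12.2, mm8 and mm9. The strand and multiple-mapping settings are not given in the sources used here. The authors also deposited FPKM values, found here to equal counts over gene length and library total (length within 1 base of GENCODE M21 for 36 of 36 mitochondrial genes with a value). Columns of the authors' comparison (group means, fold changes, p-values) and a summary of FPKM in bins were not used.

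The count test was the quasi-likelihood test of edgeR 4.0.16 (R 4.3.3) with TMM factors. Genes passed filterByExpr at a count of 10 and a total of 15, and p-values of all 18294 genes were adjusted together (Benjamini-Hochberg, threshold 0.05). The standard error is the log2 fold change divided by the root of F. For FPKM of single genes, two-sided exact permutation tests were run in scipy 1.17.1, and log2 CPM used a prior count of 2. The p-values weigh the difference between genotypes against the spread between these mice, which with 1 library per mouse includes differences between dissections and libraries. Copies were found by matching every stretch of 100 bases to the other GENCODE M21 transcripts. Alternatives were DESeq2 1.42.0, limma-voom (limma 3.58.1), RLE factors, library totals, TMM without mitochondrial genes, other filters, log2(FPKM + 1) and log2(FPKM + 0.1), and each mouse left out. The fit with copy counts added and the fit without DF-1037 and DF-1062 were added after the data were seen. The test was checked on counts simulated with the spread typical of each gene's level. The check does not cover genes of larger spread, such as the mRNAs inside the block. All mitochondrial mRNAs and rRNAs, the 5 tRNAs of highest count, 7 nuclear genes and any list gene past the threshold were named. Ptcd2, Pde12, Supv3l1, Gtpbp3, Cox8a, mt-Tf, mt-Tw, mt-Ti and Mapk3 were added after their values were seen. The members and lists were chosen with earlier results of these data known.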

Additional observations from a re-analysis of the deposited data

Results flagged for a closer look

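A mouse stood apart from the other 3 of its genotype in 6 of 82 groups of 4 mice examined, by the ratio of its gap to the nearest mouse over the whole range of the group (above Dixon's 95% critical value). Chance gives about 1 in 20 such groups. In 16p11.2+/- mice, the mt-Cytb FPKM of DF-1062 was 5451 against 7281 to 7609 (ratio 0.848), and the complex III share of its library, which is the same gene, was 0.624% against 0.833% to 0.870% (ratio 0.848). The mt-Te FPKM of DF-1037 was 200.2 against 122 to 124 (ratio 0.975). The FPKM of mt-Rnr2 over that of mt-Co1 was 0.548 in DF-1018 against 0.388 to 0.414 (ratio 0.837). How the rRNAs were treated in library preparation is not stated. In WT mice, the mt-Tp FPKM of WT-1061 was 1125 against 1276 to 1305 (ratio 0.837), and the Polrmt FPKM of WT-1015 was 4.74 against 5.10 to 5.13 (ratio 0.916). Their causes were not tested.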

How the results depend on the processing

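No mitochondrial gene was called under any alternative, and the log2 fold changes of mt-Co2, mt-Atp6, mt-Nd4l, mt-Nd3, mt-Co3 and mt-Atp8 kept their signs in all of them, but with each mouse left out they ranged from -0.813 to -0.440, -1.487 to -0.831, -0.855 to -0.062, 0.021 to 0.300, 0.036 to 0.541 and 0.136 to 0.739 in this order. Of all genes tested, 31 were called by DESeq2, 11 without DF-1037 and DF-1062, and 8 to 18 with 1 mouse left out, against 20. The mitochondrial genes with an unadjusted p under 0.05 numbered 1 with the copy counts added and 1 to 4 with 1 mouse left out. mt-Atp6 lost it without WT-1015, WT-1041, DF-1037 or DF-1059, mt-Co2 lost it without WT-1063, and both lost it without DF-1062. In the fit without DF-1062, mt-Ti, mt-Atp8, mt-Co3 and mt-Tl2 had it, 4 of 30 tested, against 2.55% of all genes in that fit. Signs near 0 turned. limma-voom gave -0.005 for mt-Nd2, and mt-Nd4 had 0.005 with library totals and 0.004 with TMM on the other genes. Without DF-1037 and DF-1062, log2 fold changes turned to 0.055 for mt-Nd1, 0.093 for mt-Nd4, 0.056 for mt-Nd6, 0.079 for mt-Cytb, 0.036 for mt-Rnr2, -0.075 for mt-Te and -0.033 for Tfam. With each mouse left out they ranged from -0.090 to 0.111 for mt-Nd1, from -0.057 to 0.132 for mt-Nd2, from -0.050 to 0.140 for mt-Co1, from -0.057 to 0.117 for mt-Nd4 and from -0.038 to 0.163 for mt-Nd5. The ranges were -0.135 to 0.082 for mt-Nd6, -0.088 to 0.096 for mt-Cytb, -0.180 to 0.045 for mt-Rnr1 and -0.299 to 0.005 for mt-Rnr2. For tRNAs they were -0.191 to 0.105 for mt-Tn, -0.015 to 0.203 for mt-Tc and -0.111 to 0.318 for mt-Te. For nuclear genes they were -0.012 to 0.055 for Polrmt, -0.027 to 0.074 for Tfam, -0.028 to 0.166 for Mterf3 and -0.014 to 0.256 for Ppargc1a. The cause of these turns was not tested. The labels number mice individually. No paired analysis was possible because no replicate number occurs in both genotypes. The size of 4 mice per group and the counts per tRNA limit what could be detected, and the reads themselves were not analysed here.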
